A study of Mus musculus with 34 samples.

Results

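The genes described here encode 9 transcription factors through which liver cells sense bile acids, foreign chemicals and hormones: Nr1h4, Nr0b2, Nr1i2, Nr1i3, Rxra, Ahr, Esr1, Nr3c1 and Thrb. They were taken by gene symbol from the deposited count tables, in which they are 9 of 24951 genes in hepatocytes and 9 of 26233 genes in liver macrophages. All 9 passed the filter on low counts in hepatocytes and 8 of 9 in macrophages, where Nr1i3 did not. They are nuclear receptors, except that Ahr encodes a receptor of the basic helix-loop-helix PAS family.

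FXR, the product of Nr1h4, binds bile acids and induces Nr0b2, whose product SHP has no DNA-binding domain and represses bile acid synthesis. PXR (Nr1i2) and CAR (Nr1i3) respond to drugs and other foreign compounds and induce cytochrome P450 enzymes and transporters, while the aryl hydrocarbon receptor (Ahr) does so for planar aromatic compounds. FXR, PXR, CAR and the thyroid hormone receptor beta (Thrb, the main thyroid hormone receptor of hepatocytes) pair with RXR alpha (Rxra), whereas the oestrogen receptor alpha (Esr1) and the glucocorticoid receptor (Nr3c1) act mainly as homodimers.

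The study asked how loss of the coactivators YAP and TAZ from biliary epithelial cells bears on other liver cells, with and without injury. Knockout mice (Opn-CreERt2 Yapfl/fl Tazfl/fl) carried a tamoxifen-inducible Cre under the osteopontin promoter, which directs deletion to biliary cells; these were not among the cells sorted. Control siblings (Yap fl/fl Taz fl/fl) had the floxed alleles but no Cre. All mice were of a mixed B6;129P background and were given tamoxifen (1.6 mg/kg, 5 days) when 7 to 8 weeks old and then had 3 weeks without it. Injured mice then received 1 ml/kg carbon tetrachloride (CCl4), which pericentral hepatocytes convert to a toxic radical, and were killed 48 h later. Hepatocytes came from 4 knockout and 3 control mice after CCl4 and from 5 knockout and 6 control mice without it. Macrophages, sorted for surface F4/80 and CD45, came from 4 mice in each of the same 4 groups, so that 34 libraries fell into 8 groups.

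Hepatocyte libraries of 3′ tags totalled between 931496 and 7535053 counts, and macrophage libraries between 596380 and 5128587. The numbers of the sequencing files fell into 2 series. The first held 5 hepatocyte and 2 macrophage libraries, all from control mice, and every knockout library was in the second. First-series hepatocyte libraries were the deeper ones, with 4910846 to 7535053 counts against 931496 to 2411576 in the second series. For 2 control libraries after CCl4, hepatocytes of mouse 15 and macrophages of mouse 11, the description names a knockout but the genotype does not; both were kept as controls. The defining markers of each sorted cell type were present, at 53973 to 119787 summed CPM for 7 hepatocyte genes in hepatocytes and 5883 to 22705 for 10 Kupffer cell genes in macrophages. Markers of other cells were present too: Kupffer genes summed to 12.1 to 1192 CPM in hepatocytes and hepatocyte genes to 383 to 30755 CPM in macrophages. Unless stated otherwise, CPM are counts scaled to library size with TMM factors within a cell type, errors are SD over mice, and a gene is called where the Benjamini-Hochberg adjusted p of edgeR's quasi-likelihood test over all tested genes was under 0.05.

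Promoter windows, from 250 bases before to 50 after a transcription start that RefSeq lists on GRCm38.p6, were searched for 7 of the 9 genes. Ahr and Nr3c1 were not included. Windows of the 3 genes behind the main results are shown: Nr1h4, which fell after CCl4 in hepatocytes of both genotypes; Thrb, called in hepatocytes both after CCl4 and in knockout mice; and Nr0b2, which fell in macrophages. Capitals mark 3 motifs on either strand: the nuclear receptor half-site AGGTCA, the extended half-site core TCAAGG to which monomeric receptors such as LRH-1 bind, and the HNF1 half-site GTTAAT. In Thrb the first and second overlap.
Nr1h4 (chr10:89506609-89506908, minus strand): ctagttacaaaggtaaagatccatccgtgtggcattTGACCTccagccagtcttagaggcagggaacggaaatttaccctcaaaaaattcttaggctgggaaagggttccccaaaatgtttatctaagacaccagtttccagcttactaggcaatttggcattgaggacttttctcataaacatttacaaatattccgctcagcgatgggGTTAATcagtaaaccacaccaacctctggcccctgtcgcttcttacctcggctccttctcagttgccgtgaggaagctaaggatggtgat
Thrb (chr14:17660710-17661009, plus strand): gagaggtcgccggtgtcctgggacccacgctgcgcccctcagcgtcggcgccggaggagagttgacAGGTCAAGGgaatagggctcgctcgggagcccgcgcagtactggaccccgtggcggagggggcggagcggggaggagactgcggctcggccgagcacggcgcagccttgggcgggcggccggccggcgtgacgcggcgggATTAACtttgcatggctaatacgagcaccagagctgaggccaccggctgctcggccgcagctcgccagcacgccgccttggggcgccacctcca
Nr0b2 (chr4:133553126-133553425, plus strand): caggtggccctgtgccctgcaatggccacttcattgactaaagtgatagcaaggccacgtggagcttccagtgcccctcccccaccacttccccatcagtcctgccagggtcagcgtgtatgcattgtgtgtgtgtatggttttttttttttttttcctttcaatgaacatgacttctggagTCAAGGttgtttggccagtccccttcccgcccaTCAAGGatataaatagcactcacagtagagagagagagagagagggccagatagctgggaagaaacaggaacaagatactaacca
Among all 32851 windows of this length in the table, 16.3% held AGGTCA, 14.4% TCAAGG and 7.1% GTTAAT. Nr1h4 had 1 AGGTCA and 1 GTTAAT, Thrb had 1 of each of the 3 motifs, and Nr0b2 had 2 TCAAGG. A further window of Thrb (chr14:17981394-17981693, plus strand) held none of them. Rxra and Esr1 each had a match in 1 of 2 windows, so that 5 of the 7 genes had a match somewhere, and the windows of Nr1i2 and Nr1i3 had none. The share of all genes with any of the 3 motifs in any window was not counted. The 5 of 7 therefore cannot be judged against the shares of single motifs. A match describes these letters and does not show a bound site.

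Across cell types the receptors fell into 2 sets. In control mice without CCl4, Nr1h4, Nr0b2, Nr1i2, Nr1i3 and Esr1 were higher in hepatocytes than in macrophages, while Rxra, Ahr, Nr3c1 and Thrb were not called. These are 5 of 9 genes, against 62.8% of 12052 genes called between the cell types and 28.5% called higher in hepatocytes. In such sorted cell populations, fewer cells that contain an mRNA and less of it per cell cannot be told apart. On a joint normalisation of all 34 libraries, Nr1h4 had 89.8 ± 13.2 CPM in hepatocytes (n = 6) and 12.5 ± 7.40 CPM in macrophages (n = 4), and the log2 ratio of the cell types was 2.81 (SE 0.550, adjusted p = 6.06e-05). Nr0b2 had 116 ± 59.9 CPM in hepatocytes and 18.3 ± 6.15 CPM in macrophages, giving 2.64 (SE 0.565, adjusted p = 0.000175). For Nr1i2 the log2 fold change was 3.23 (SE 0.709, adjusted p = 0.000240), for Nr1i3 2.81 (SE 0.789, adjusted p = 0.00235) and for Esr1 1.99 (SE 0.327, adjusted p = 4.58e-06). The call of Nr1i3 was lost with the file series as a covariate (2.07, adjusted p = 0.0561).

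For 4 of these 5 receptors, picked by their call in control mice without CCl4, the cell types did not overlap over all groups. The control libraries used for the pick are among those compared, so this is no independent check. The share of all genes that separate in this way was not counted, while 62.8% of 12052 genes were called in those control mice. Over all 18 hepatocyte and 16 macrophage libraries the lowest hepatocyte library lay above the highest macrophage library for Nr1h4 (27.3 against 24.4 CPM), Nr0b2 (40.6 against 25.5 CPM), Nr1i2 (39.5 against 38.6 CPM) and Esr1 (36.1 against 23.4 CPM), all on the joint scale. For Nr1i3 and the other 4 receptors the libraries of the cell types overlapped.

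In uninjured controls the macrophage signal of the hepatocyte receptors was about as large, relative to hepatocytes, as that of hepatocyte marker genes. Nr1i2 stood at 10.2% of its hepatocyte mean, Nr1h4 at 13.9%, Nr1i3 at 15.1% and Nr0b2 at 15.7%. The 7 hepatocyte markers in both tables stood at 8.41% (Serpina1c) to 15.2% (Apoc3), with albumin (Alb) at 12%. Esr1 was higher, at 25.0%, and the other receptors stood at 66.0% (Thrb), 89.6% (Ahr), 104% (Rxra) and 114% (Nr3c1). How much of the macrophage signal came from hepatocyte RNA was not tested.

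**Figure D1:**
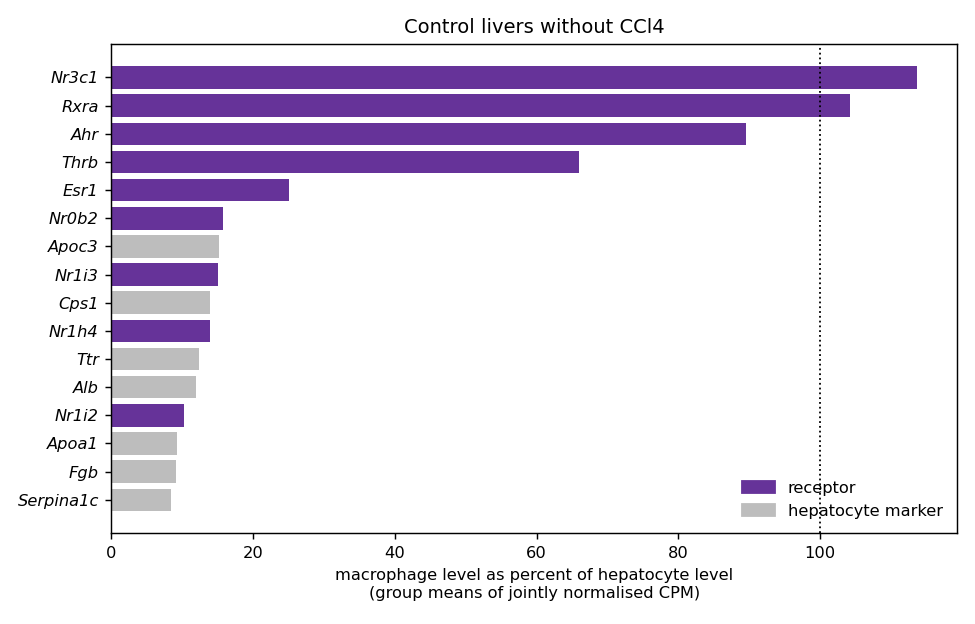
Mean level in macrophages as a percent of the mean level in hepatocytes, in control mice without CCl4 (6 hepatocyte and 4 macrophage libraries, jointly normalised CPM), for the receptors (purple) and 7 hepatocyte markers (grey). Nr1i2, Nr1h4, Nr1i3 and Nr0b2 lie between 10.2% and 15.7%, beside the markers at 8.41% to 15.2%, and Thrb, Ahr, Rxra and Nr3c1 lie at 66.0% or above.

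The order of the 8 groups differed among receptors. On the joint scale, hepatocyte Nr1h4 averaged 40.9 ± 14.6 CPM in knockout mice after CCl4, 54.1 ± 7.75 in controls after CCl4, 76.6 ± 19.6 in knockout mice and 89.8 ± 13.2 in controls. Macrophage Nr1h4 averaged 13.1 ± 10.8, 2.84 ± 3.28, 14.1 ± 7.22 and 12.5 ± 7.40 CPM in the same 4 groups. From the highest down, neighbouring group means of Nr1h4 differed by more than the larger SD in 3 places: below knockout hepatocytes without CCl4, between the cell types, and above control macrophages after CCl4. Esr1 likewise had a step of this size between the cell types, as did Nr0b2 and Nr1i2. Rxra was lowest in control macrophages after CCl4, at 124 ± 33.3 CPM, and highest in control macrophages without it, at 241 ± 28.1 CPM, next to control hepatocytes at 231 ± 22.9 CPM. Nr3c1 was lowest in knockout hepatocytes after CCl4, at 70.6 ± 13.2 CPM, and highest in control macrophages, at 140 ± 15.3 CPM. Thrb was highest in control hepatocytes, at 97.1 ± 12.8 CPM, and Ahr in knockout hepatocytes, at 61.7 ± 25.8 CPM. For Rxra, Ahr and Nr1i3 no neighbouring means in the order differed by more than the larger SD.

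CCl4 lowered several of these receptors in control hepatocytes, and how many were called varied with the mice and the fit. Of 9 receptors 5 fell, namely Nr1h4, Nr1i3, Rxra, Nr3c1 and Thrb, and none rose, against 27.4% of 9679 genes called in this comparison (13.7% fell). All 9 log2 fold changes were negative, with a median of -0.69, while the median of all tested genes was -0.01. The receptors were chosen with earlier results of these data known. Shares and medians set against all genes, here and in the other comparisons, are therefore descriptions and not independent tests. The comparison sets 3 mice after CCl4 against 6 without it. With 1 mouse left out, 2 to 4 receptors were called. DESeq2 called 3, the fit without the library of conflicting labels 2, and the fit with the file series as a covariate 6.

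**Figure D2:**
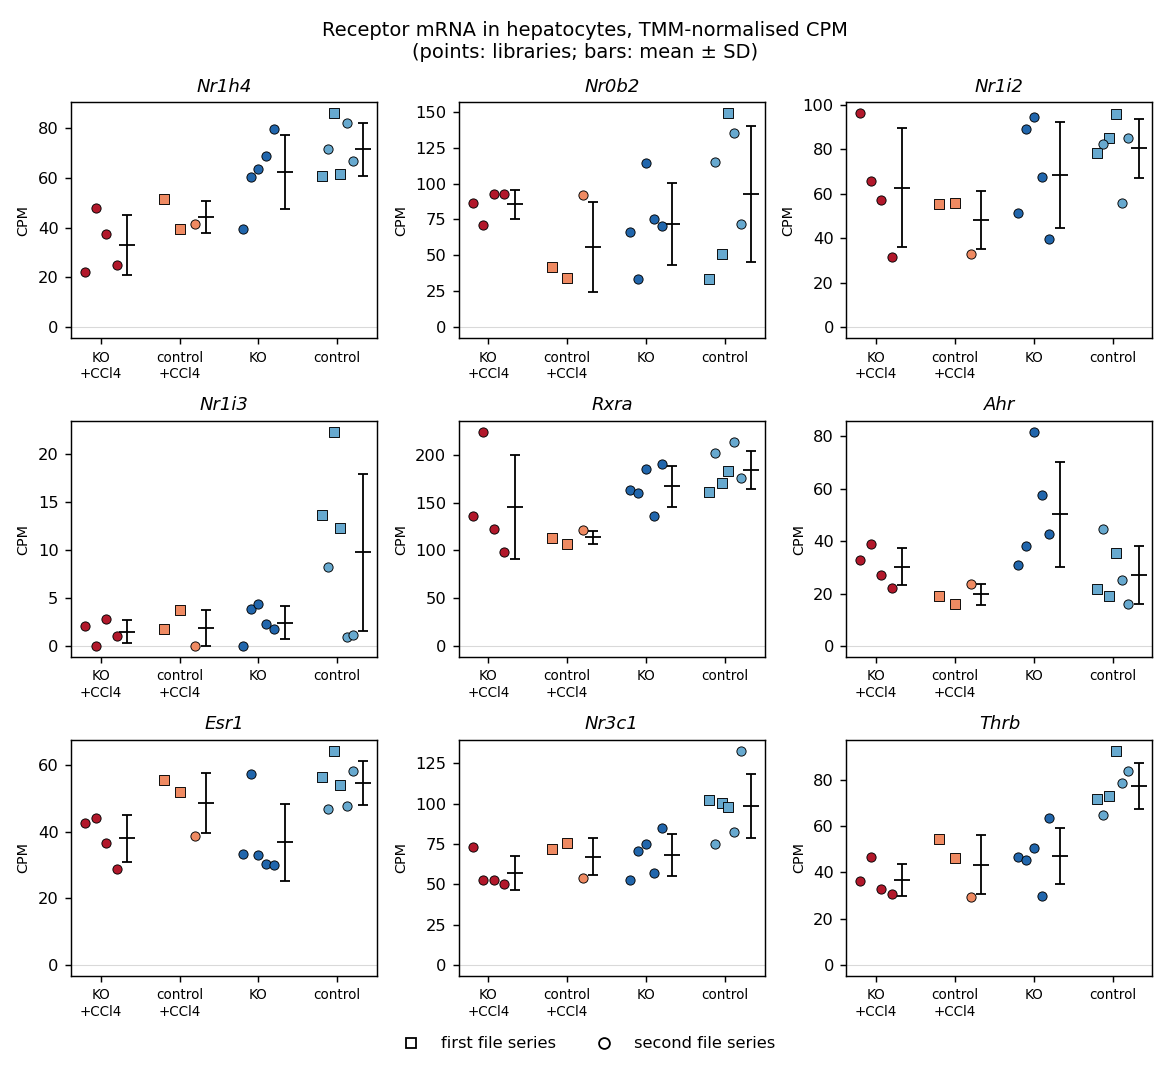
TMM-normalised CPM of the 9 receptors in each hepatocyte library, with mean ± SD; squares are libraries of the first file series and circles of the second. After CCl4 the 3 control libraries of Nr1h4, Rxra and Thrb lie below all 6 control libraries without CCl4, and Nr1i3 is above 10 CPM only in 3 first-series controls.

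The bile acid receptor gene Nr1h4 had 51.7, 39.5 and 41.5 CPM in control hepatocytes of mice 12, 15 and 16 after CCl4, against 60.8 to 86.1 CPM (median 69.2) in the 6 controls without it. All 3 injured livers lay below all 6 uninjured ones. The log2 fold change was -0.69 (SE 0.231, adjusted p = 0.0305). Its target Nr0b2 had 42.1, 34 and 91.8 CPM after CCl4 and 33.8 to 149 CPM (median 93.6) without, and these groups overlapped (log2 fold change -0.73, SE 0.437, adjusted p = 0.240).

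Among the xenobiotic receptors, Nr1i2 had 55.5, 55.8 and 33 CPM in control hepatocytes after CCl4, against 55.9 to 95.6 CPM (median 83.5) without. The groups did not overlap, by a margin of less than 1 CPM, and the log2 fold change of -0.74 was not called (SE 0.295, adjusted p = 0.0689). With the file series as a covariate Nr1i2 was called (-0.81, adjusted p = 0.0403). Ahr had 19.3, 16 and 23.8 CPM after CCl4 and 15.9 to 44.6 CPM (median 23.5) without, overlapping widely (log2 fold change -0.45, SE 0.309, adjusted p = 0.307). Nr1i3 is described further on, since its level followed the file series.

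Rxra, the common partner, had 113, 107 and 121 CPM in control hepatocytes after CCl4, against 161 to 213 CPM (median 179) without. Its injured group was narrow and lay entirely below the uninjured one, and the fold change on the log2 scale was -0.69 (SE 0.204, adjusted p = 0.0144).

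Of the hormone receptors, Thrb had 54.5, 46.1 and 29.4 CPM after CCl4, against 64.6 to 92.4 CPM (median 75.6) in controls without it. These groups did not overlap either, and the log2 fold change was -0.83 (SE 0.218, adjusted p = 0.00716). Nr3c1 had 71.7, 75.7 and 53.9 CPM after CCl4, against 75.1 to 133 CPM (median 99.2) without, so that mouse 15 lay just above the lowest control (log2 fold change -0.55, SE 0.198, adjusted p = 0.0434). Esr1 had 55.5, 51.9 and 38.6 CPM after CCl4 and 46.9 to 64.3 CPM (median 55.4) without, and the fold change on the log2 scale was -0.17 (SE 0.205, adjusted p = 0.579).

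These calls rested on few injured mice. Without mouse 15, whose labels conflict, Nr1h4 (adjusted p = 0.123), Rxra (0.0622) and Nr3c1 (0.0576) lost their calls, and without mouse 16 Nr1h4 (0.0901), Nr3c1 (0.186) and Thrb (0.0552) did. Leaving out single controls also ended the call of Nr1h4 (mice 6, 7 or 9) and of Nr3c1 (mice 2, 7, 8 or 19), and leaving out injured mouse 12 ended that of Nr3c1. Within the first file series, 2 against 3 mice, Rxra (-0.67, adjusted p = 0.0224) and Thrb (-0.68, adjusted p = 0.0403) were called and Nr1h4 (-0.64, adjusted p = 0.0809) and Nr3c1 (-0.48, adjusted p = 0.0617) were not. The second series holds 1 injured control, so that the spread there comes from the other groups and missing calls say nothing about stability; its log2 fold changes were -0.78 for Nr1h4, -0.66 for Rxra and -1.32 for Thrb. Hepatocyte markers summed to 53973 to 80139 CPM after CCl4 and to 85592 to 119787 without, and Kupffer markers to 304 to 374 CPM after CCl4 and 12.1 to 198 CPM without. In these lists 3 of 7 hepatocyte markers fell and 4 of 10 Kupffer markers rose, as did 3 of 6 stellate cell markers; their part in the receptors' fall was not tested.

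In knockout hepatocytes CCl4 lowered 1 of the 9 receptors, Nr1h4, against 13.9% of 9679 genes called (6.84% fell). The median log2 fold change of the 9 was -0.25, that of all tested genes -0.02. Nr1h4 had 22.0, 48.0, 37.5 and 24.9 CPM in knockout mice 13, 14, 17 and 18 after CCl4, against 39.6, 60.5, 63.5, 68.9 and 79.7 CPM in the 5 knockout mice without. Only mouse 14 reached above the lowest uninjured library, and the log2 fold change was -0.93 (SE 0.231, adjusted p = 0.00977). Without mouse 18 the adjusted p was 0.0548. For Ahr the log2 value was -0.74 (SE 0.298, adjusted p = 0.109), and the remaining values ran from -0.78 (Nr1i3) to 0.26 (Nr0b2). Rxra had 136, 224, 123 and 98.2 CPM after CCl4 and 163, 160, 186, 136 and 190 CPM without, with mouse 14 above every uninjured library (-0.20, SE 0.191, adjusted p = 0.545). Nr0b2 had 86.2, 71.2, 92.9 and 92.5 CPM after CCl4 and 66.3, 33.7, 114, 75.5 and 70.3 CPM without. Nr1i2 had 96.2, 65.8, 57.2 and 31.5 CPM after CCl4 and 51.4, 89.1, 94.6, 67.4 and 39.4 CPM without. Both receptors overlapped between the groups. Hepatocyte markers summed to 61420 to 85681 CPM after CCl4 and to 84458 to 105233 CPM without (1 of 7 fell), and Kupffer markers to 129 to 250 CPM after CCl4 and to 120 to 1192 CPM without (0 of 10 called by edgeR, 1 at an unadjusted p under 0.05). Of 5 tested biliary markers 2 rose; the part of these markers in the result was not tested.

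Whether the response to CCl4 differed between genotypes was tested with the interaction term. It called 0 of 9 receptors, and 0 at an unadjusted p under 0.05, in edgeR and 0 in DESeq2, against 0.217% of genes in edgeR. Rxra and Thrb, called in controls and not in knockout mice, had interaction values of 0.49 (SE 0.276, adjusted p = 0.587) and 0.46 (SE 0.303, adjusted p = 0.679). For Nr1h4 the value was -0.24 (SE 0.320, adjusted p = 0.884). In the same interaction all 10 Kupffer markers had an unadjusted p under 0.05 and none was called (median -3.11); their part in the receptors' values was not tested.

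**Figure D3:**
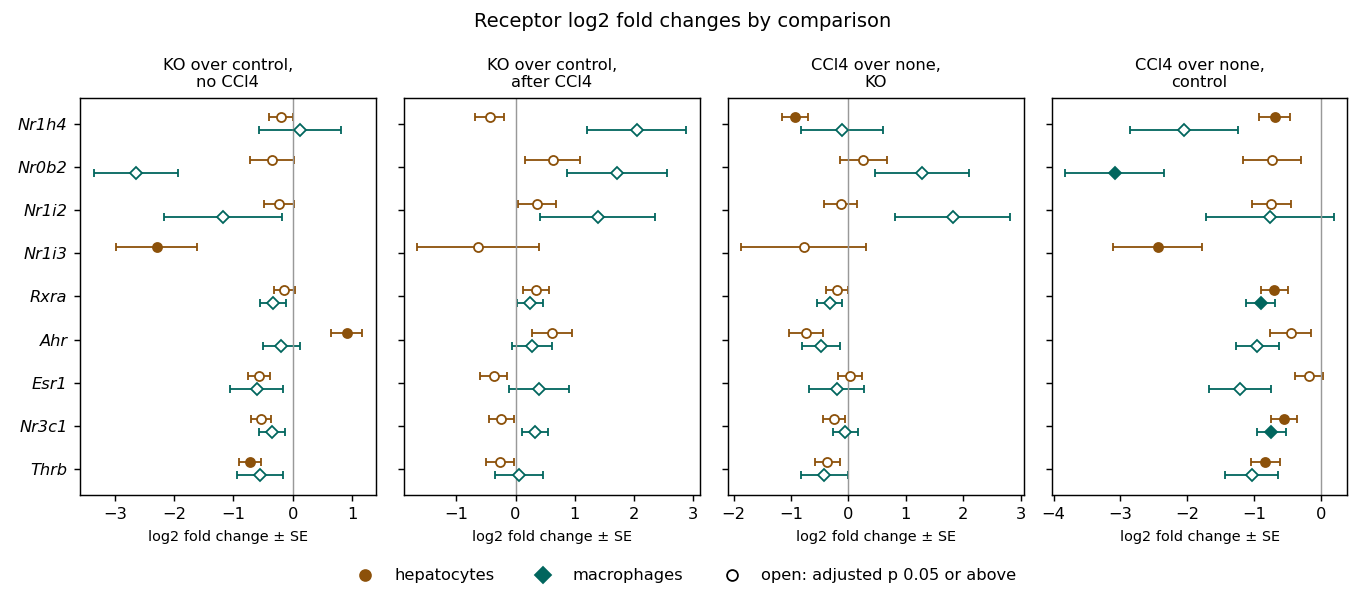
Log2 fold change ± SE of each receptor in 4 comparisons, in hepatocytes (brown circles) and macrophages (green diamonds); filled symbols have an adjusted p under 0.05. Filled symbols are most frequent for CCl4 in controls, with 5 in hepatocytes and 3 in macrophages, all on the negative side.

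Loss of YAP and TAZ from biliary cells went with 3 called receptors in uninjured hepatocytes: Ahr was higher and Thrb and Nr1i3 were lower in knockout mice. This is 3 of 9, against 7.87% of 9679 genes called (4.64% higher, 3.23% lower; the 6 control libraries are those of the CCl4 comparison), with a median log2 fold change of -0.35 over the receptors and 0.01 over all tested genes. Thrb had 46.8, 45.2, 50.5, 29.6 and 63.4 CPM in knockout mice 4, 5, 10, 20 and 21, against 64.6 to 92.4 CPM (median 75.6) in 6 controls. Every knockout library lay below every control library, and the fold change on the log2 scale was -0.72 (SE 0.190, adjusted p = 0.0254). Ahr had 30.8, 38.2, 81.6, 57.7 and 42.8 CPM in the same knockout mice, against 15.9 to 44.6 CPM (median 23.5) in controls. Its groups overlapped, with mice 10 and 20 above all controls, and the log2 fold change was 0.91 (SE 0.265, adjusted p = 0.0390).

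Neither receptor was called once the file series, which separates 3 of 6 controls from all knockout mice, was taken into account. Control means in the first and second series were 78.9 and 75.6 CPM for Thrb and 25.4 and 28.6 CPM for Ahr. The second series alone has fewer controls, and calls over all genes went from 762 to 50 there. Whether the series or the smaller number of mice ended the calls was not tested. With the series as a covariate the values were -0.58 for Thrb (adjusted p = 0.195) and 0.76 for Ahr (adjusted p = 0.262). In the second series alone, 5 knockout against 3 control mice, they were -0.70 for Thrb (adjusted p = 0.255) and 0.80 for Ahr (adjusted p = 0.382), and no receptor was called. Leaving out 1 of 4 mice (control 8 or knockout 4, 5 or 20) ended the call of Thrb, at adjusted p of 0.0564 to 0.0790, and leaving out 1 of 6 (controls 2, 7, 9 or 19, knockout 10 or 20) that of Ahr, at 0.0543 to 0.114.

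Of the other receptors, Nr3c1 and Esr1 came near the threshold. Nr3c1 had 52.9, 70.7, 75.1, 57.0 and 84.8 CPM in knockout mice, against 75.1 to 133 CPM (median 99.2) in controls (log2 fold change -0.54, SE 0.172, adjusted p = 0.0578). DESeq2 called this difference (-0.53, adjusted p = 0.0358). Esr1 had 33.4, 57.3, 33.2, 30.4 and 30.0 CPM in knockout mice, against 46.9 to 64.3 CPM (median 55.4) in controls. Here 4 knockout mice lay below all controls and mouse 5 lay among them (log2 fold change -0.57, SE 0.185, adjusted p = 0.0583). Nr1h4, Nr0b2, Nr1i2 and Rxra had log2 fold changes of -0.20, -0.35, -0.24 and -0.14, with adjusted p from 0.562 to 0.646. Kupffer markers summed to 120 to 1192 CPM in knockout mice and to 12.1 to 198 CPM in controls, and 7 of 10 rose. Biliary markers summed to 81.5 to 304 CPM in knockout mice and to 38.9 to 102 CPM in controls (2 of 5 tested rose), and 1 of 7 hepatocyte markers fell. The part of these markers in the results was not tested.

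After CCl4 the genotype made no called difference in hepatocytes. edgeR called 0 of 9 receptors, 0 had an unadjusted p under 0.05 and DESeq2 called 0, against 0.176% of 9679 genes in edgeR. Thrb had 36.1, 46.5, 32.8 and 30.8 CPM in knockout mice and 54.5, 46.1 and 29.4 CPM in controls, and Ahr 32.7, 38.7, 27.2 and 22.2 CPM in knockout mice and 19.3, 16 and 23.8 CPM in controls. Both genes overlapped between the groups, with log2 fold changes of -0.26 (SE 0.236, adjusted p = 0.647) for Thrb and 0.62 (SE 0.336, adjusted p = 0.443) for Ahr. The other 7 values ran between -0.63 (Nr1i3) and 0.63 (Nr0b2).

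The level of Nr1i3, the CAR gene, was low and followed the file series. In uninjured controls it had 13.7, 22.3 and 12.3 CPM in the first-series libraries of mice 2, 7 and 8, from 79, 109 and 58 counts. In the second series controls 6, 9 and 19 had 8.22, 0.902 and 1.06 CPM, from 7, 1 and 1 counts, and the 5 knockout libraries had 0 to 4.33 CPM, from at most 6 counts. Knockout mice thus overlapped the second-series controls and not the first-series ones. Knockout over control gave -2.30 on the log2 scale in all libraries (SE 0.677, adjusted p = 0.0398) and -0.23 with the series as a covariate (adjusted p = 0.938), and within the second series Nr1i3 did not pass the filter. Leaving out any 1 of 7 mice (controls 2, 7 or 8, knockout 4, 5, 20 or 21) ended the call, at adjusted p of 0.0622 to 0.126.

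For CCl4 in controls the Nr1i3 values within the first series were further apart. First-series mice 12 and 15 had 1.72 and 3.72 CPM after CCl4, against 12.3 to 22.3 CPM in the 3 first-series controls. In the second series mouse 16 had 0 counts after CCl4, next to 7, 1 and 1 counts in uninjured controls 6, 9 and 19. The log2 fold change was -2.44 in all libraries (SE 0.662, adjusted p = 0.00813) and -2.56 within the first series (adjusted p = 0.00673), and the call held with each mouse left out in turn. DESeq2 did not call it (-2.36, adjusted p = 0.0576). In macrophages Nr1i3 had 0 counts in all 4 controls after CCl4, and 7.38, 0, 1.98 and 0 CPM in controls 6, 7, 8 and 9 without it. In GRCm38 Nr1i3 (chromosome 1, 171213970 to 171220701, plus strand) shares 3304 exonic bases with Tomm40l on the minus strand, so its counts are uncertain where reads were counted without strand or reads over both genes were dropped. Tomm40l itself had 0 to 2 counts in hepatocyte libraries. How the authors' counting treated such reads is not given in the sources used here. None of the other receptors shared more than 127 exonic bases with another gene, the largest being Ahr with Gm48236, which had 0 to 8 counts in hepatocytes.

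Target genes of several of these receptors fell after CCl4 as well. In control hepatocytes after CCl4, 6 of 11 measured FXR and SHP target genes fell and none rose (median log2 fold change -1.47, against -0.01 for all tested genes, of which 13.7% fell and 13.7% rose). This list mixes genes that FXR induces with genes that SHP represses, so its falls give no direction of receptor activity. Of 7 hepatocyte markers 3 fell in the same comparison, and their part in these counts was not tested. The target lists, too, were chosen with earlier results of these data known, so their counts are descriptive. Slc27a5, which activates bile acids for conjugation, had 82.8 ± 15.7 CPM after CCl4 and 534 ± 132 CPM without (n = 3 and 6), a log2 fold change of -2.69 (adjusted p = 3.86e-06). Abcb11, the bile salt export pump, had 153 ± 39.3 CPM after CCl4 and 471 ± 65.9 CPM without (log2 fold change -1.62, adjusted p = 0.000107). Baat, which conjugates bile acids, and Slc10a1, which takes them up, fell by 1.47 and 1.63 on the log2 scale (adjusted p = 0.000288 and 0.00474). Of 16 PXR and CAR target genes 6 fell and none rose (median -0.94). They included the carboxylesterase Ces2a (-2.03), the transporter Abcc3 (-1.23) and the cytochromes Cyp2c29 (-2.09) and Cyp2a5 (-4.43), with adjusted p of 1.01e-05 to 0.00276. With the file series as a covariate, 6 of 11 and 6 of 16 fell; in the second series, with 1 injured control, 2 and 1 fell, at medians of -1.37 and -1.20.

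Targets of the remaining receptors were counted in the same comparison, in which 13.7% of all genes fell and 13.7% rose. Of 4 AHR target genes 2 fell, Cyp1a2 (-2.47, adjusted p = 0.00668) and Ugt1a6a (-1.47, adjusted p = 0.0484). Of 12 glucocorticoid target genes 3 fell and 1 rose: the gluconeogenic enzyme Pck1 (-1.81), the glucocorticoid-induced Tsc22d3 (-1.66) and the tyrosine aminotransferase gene fell, and the kinase Sgk1 rose (1.02), with adjusted p of 0.00373 to 0.0345. Among 5 thyroid hormone target genes, the malic enzyme Me1 (-1.23, adjusted p = 0.000875) and Thrsp (-3.54, adjusted p = 0.00879) fell. Of 18 partner and cofactor genes 2 rose and 1 fell. The chaperone Hsp90aa1 was among those that rose (1.0, adjusted p = 0.00894), and the coactivator Ppargc1b fell (-1.78, adjusted p = 6.10e-05). Of 24 other nuclear receptors 4 fell and 1 rose (median -0.32), a share below the 27.4% of all genes called; the clock receptor Nr1d1 (-1.42) and Nr5a2, which encodes LRH-1 (-0.61), were among those that fell, and Nr4a3 (1.75) rose, with adjusted p of 0.0203 to 0.0459.

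In knockout hepatocytes CCl4 lowered 5 of 11 FXR and SHP targets (median -1.0) and 8 of 16 PXR and CAR targets (median -0.78), and raised none in either list, against 6.84% of all genes that fell and 7.02% that rose. Of 7 hepatocyte markers 1 fell there too, and its part in these counts was not tested. Slc27a5 fell by 2.08 and Fetub, an FXR-induced secreted protein, by 1.46 on the log2 scale (adjusted p = 7.92e-05 and 0.000637). Cyp7a1, the rate-limiting enzyme of bile acid synthesis, had 18.6 ± 16.9 CPM after CCl4 and 258 ± 186 CPM without (n = 4 and 5; log2 fold change -3.84, adjusted p = 0.00740). Cyp3a11, the main PXR-induced cytochrome, had 839 ± 561 CPM after CCl4 and 2869 ± 1149 CPM without (-1.78, adjusted p = 0.0164). Ces2a (-1.62), Cyp2c29 (-2.29), Cyp1a2 (-3.18), Pck1 (-1.46) and Thrsp (-2.75) fell too, with adjusted p of 0.000227 to 0.0315. Hsp90aa1 rose (1.35, adjusted p = 0.00181) and Ppargc1b fell (-1.31, adjusted p = 0.00478), while among 24 other nuclear receptors Nr4a1 (-1.54) and Pparg (-1.35) fell. The lists hold genes that other regulators also control. No gene of these 7 lists was called in the hepatocyte interaction, in which edgeR called 0.217% of all genes. At an unadjusted p under 0.05 in edgeR were 6 of 24 other nuclear receptors and at most 1 gene of each other list, against 987 of 9679 genes.

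Without CCl4, knockout over control hepatocytes, edgeR called 1 of 11 FXR and SHP targets, 2 of 16 PXR and CAR targets and 2 of 4 AHR targets. It called 0 of 12 glucocorticoid and 2 of 5 thyroid hormone targets, 1 of 18 partner and cofactor genes and 1 of 24 other nuclear receptors. Over all genes the share was 7.87%. None of the 9 genes called in these 7 lists was called once the file series was taken into account. Slc51b, the bile acid exporter subunit that FXR induces, had 22.8 ± 10.9 CPM in knockout mice and 5.89 ± 2.55 CPM in controls (n = 5 and 6; log2 fold change 2.1, adjusted p = 0.00410), and was the only one of 11 FXR and SHP targets called. Of 16 PXR and CAR targets, Akr1b7 (2.88, adjusted p = 0.00630) and Cyp2c55 (2.03, adjusted p = 0.0190) rose. Of 4 AHR targets, the quinone reductase Nqo1 rose (1.31, adjusted p = 0.0231) and Ugt1a6a fell (-2.86, adjusted p = 0.0140). Of 5 thyroid hormone targets, the deiodinase Dio1 (-1.98, adjusted p = 0.0132) and Me1 (-0.69, adjusted p = 0.0470) fell. Fkbp4, a chaperone of steroid receptors, fell (-0.53, adjusted p = 0.0369), as did the fatty acid receptor Ppara (-1.59, adjusted p = 0.0125), and edgeR called 0 of 12 glucocorticoid targets, of which 1 had an unadjusted p under 0.05. With the series as a covariate, 0 genes of the 7 lists were called, with 1.61 for Slc51b (adjusted p = 0.108), 3.41 for Akr1b7 (adjusted p = 0.0553), -1.98 for Dio1 (adjusted p = 0.0861) and -0.86 for Ppara (adjusted p = 0.127). In the second series alone 0 were called as well. Over all genes, calls came to 79 with the covariate and 50 in the second series alone, against 762 without either. After CCl4, knockout over control, edgeR called 0 genes in each of these 7 lists, against 0.176% of all genes. At an unadjusted p under 0.05 were 3 of 11 FXR and SHP, 3 of 16 PXR and CAR and 2 of 4 AHR targets. So were 2 of 12 glucocorticoid and 2 of 5 thyroid hormone targets, 0 of 18 partners and 5 of 24 other nuclear receptors. Over all genes 1241 of 9679 were.

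In macrophages the receptors were measured beside a varying amount of hepatocyte transcripts. Summed hepatocyte markers ran to 2726 to 30755 CPM in knockout mice after CCl4, 383 to 14724 in controls after CCl4, 4043 to 13702 in knockout mice and 16846 to 21335 in controls. The 2 libraries with the least, control mice 15 and 16 after CCl4 (965 and 383 CPM), had 0 counts of Nr1h4, Nr0b2 and Nr1i2. At the other end, knockout mice 13 and 14 after CCl4 (30755 and 25612 CPM) had the highest Nr1i2, 48.2 and 31.6 CPM. Nr1h4 did not keep this order everywhere: knockout mice 20 and 21 had 22.6 and 28.6 CPM of it at marker sums of 4043 and 5418 CPM, and control mouse 7 had 3.98 CPM at 21335.

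**Figure D4:**
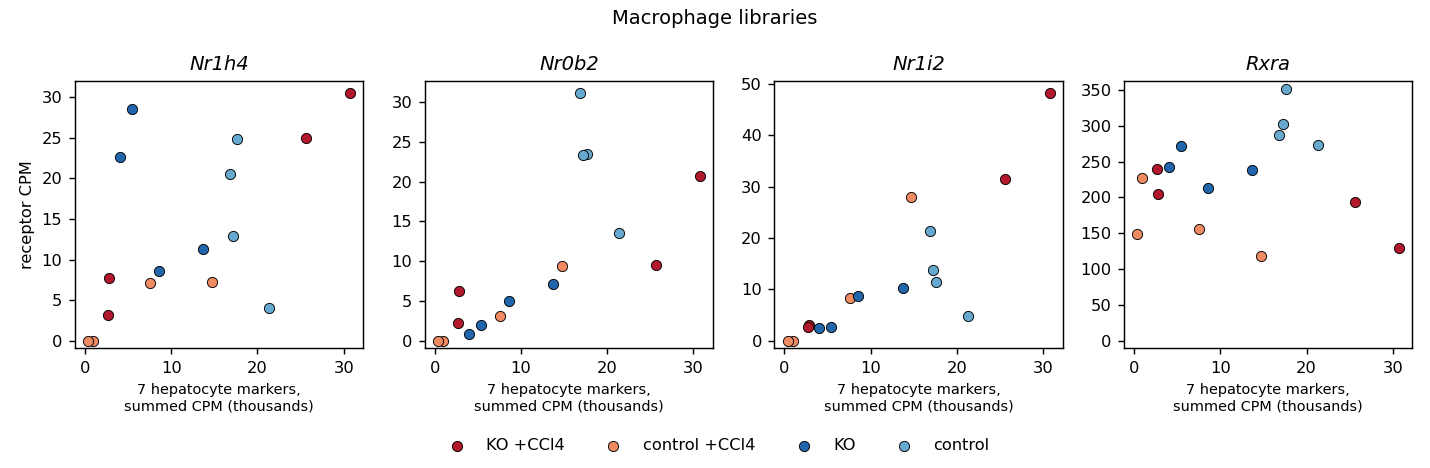
CPM of 4 receptors in each of the 16 macrophage libraries, plotted against the summed CPM of 7 hepatocyte markers in the same library. The 2 libraries at 0 for Nr1h4, Nr0b2 and Nr1i2 are those with the lowest marker sums, whereas Rxra lies between 118 and 351 CPM across the whole range.

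CCl4 lowered 3 of 8 tested receptors in control macrophages, Nr0b2, Rxra and Nr3c1, against 13.2% of 10815 genes called (6.39% fell). All 8 log2 fold changes were negative, with a median of -0.99 against -0.03 for all tested genes. Nr0b2 had 3.10, 9.34, 0 and 0 CPM in control mice 11, 12, 15 and 16 after CCl4, against 23.5, 13.5, 31.1 and 23.3 CPM in controls 6, 7, 8 and 9. The groups did not overlap, and the log2 fold change was -3.08 (SE 0.742, adjusted p = 0.0100). Summed hepatocyte markers were also lower in each of the 4 injured libraries, at 383 to 14724 CPM, than in any uninjured one. None of the 7 markers was called by edgeR (median -1.78, 2 at an unadjusted p under 0.05), and their part in the result was not tested.

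Rxra had 155, 118, 227 and 148 CPM after CCl4, against 351, 273, 287 and 302 CPM in uninjured controls. All 4 injured libraries lay below all 4 uninjured ones, and the fold change on the log2 scale was -0.90 (SE 0.218, adjusted p = 0.0119), and the call held with each mouse left out in turn, as well as within the second series (-0.90, adjusted p = 0.0489). Nr3c1 had 99.7, 115, 79.1 and 131 CPM after CCl4, against 192, 153, 176 and 185 CPM in uninjured controls, again without overlap (log2 fold change -0.74, SE 0.220, adjusted p = 0.0345). Leaving out controls 6, 8 or 9 or injured mice 11 or 15 ended the call of Nr3c1, at adjusted p of 0.0595 to 0.113. Mouse 11 is the library whose labels conflict. Within the second series neither Nr0b2 (-3.00, adjusted p = 0.0699) nor Nr3c1 (-0.71, adjusted p = 0.113) was called. In uninjured controls Rxra and Nr3c1 stood in macrophages at 104% and 114% of their hepatocyte level, against 8.41% to 15.2% for the hepatocyte markers.

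The other receptors had negative values without a call. Ahr had 21.1, 30.1, 11.5 and 18.2 CPM after CCl4, against 35.6, 51.0, 32.8 and 34.5 CPM in uninjured controls, without overlap (log2 fold change -0.95, SE 0.324, adjusted p = 0.0612). Thrb had 24.8, 18.7, 67.6 and 46.4 CPM after CCl4 and 51.6, 127, 93.2 and 51.8 CPM without (-1.03, SE 0.396, adjusted p = 0.0919). Esr1 had 10.8, 17.6, 2.62 and 8.19 CPM after CCl4 and 29.5, 19.1, 22.3 and 15.5 CPM without (-1.21, SE 0.463, adjusted p = 0.0898). For Thrb and for Esr1, 1 injured library reached into the uninjured range. Nr1h4 had 7.12, 7.26, 0 and 0 CPM after CCl4 and 24.8, 3.98, 20.5 and 12.9 CPM without (-2.04, SE 0.805, adjusted p = 0.101), and Nr1i2 had 8.36, 28.0, 0 and 0 CPM after CCl4 and 11.4, 4.78, 21.4 and 13.8 CPM without (-0.76, SE 0.958, adjusted p = 0.648). Kupffer markers summed to 8048 to 15153 CPM after CCl4 and 14751 to 19219 CPM without (3 of 10 fell), and 4 of 6 monocyte markers rose; the part of changed macrophage populations in these results was not tested.

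**Figure D5:**
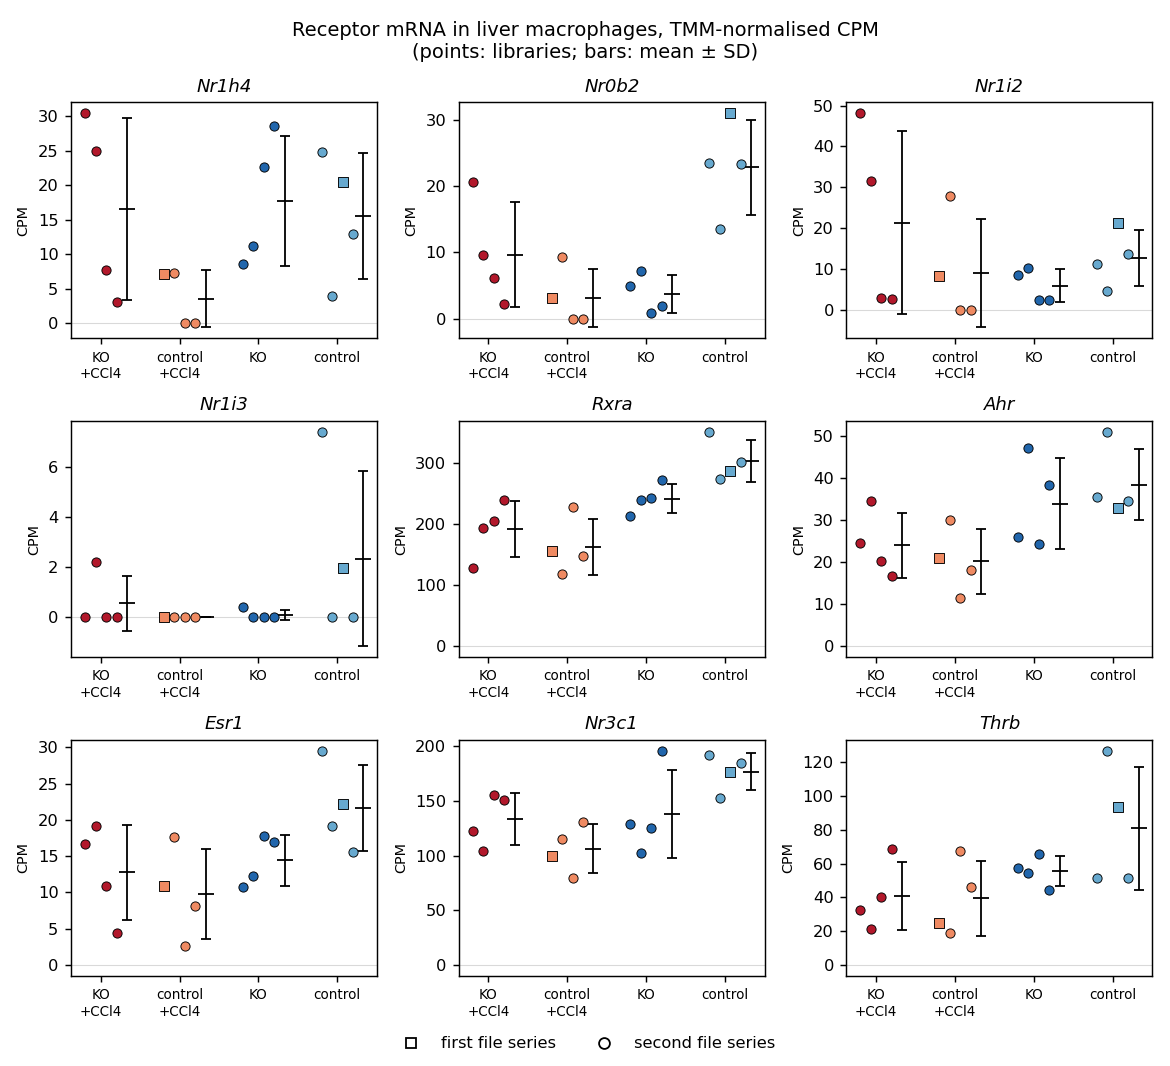
TMM-normalised CPM of the 9 receptors in each macrophage library, with mean ± SD; squares are libraries of the first file series and circles of the second. For Nr0b2, Rxra, Ahr and Nr3c1 the 4 controls after CCl4 lie below the 4 controls without it, and Nr1i3 is at 0 in most libraries.

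In knockout macrophages CCl4 gave 0 of 8 calls in edgeR, with 0 at an unadjusted p under 0.05 and 0 in DESeq2, against 0.878% of 10815 genes in edgeR. Rxra had 129, 194, 205 and 240 CPM after CCl4 and 213, 239, 242 and 272 CPM without (log2 fold change -0.33, SE 0.218, adjusted p = 0.612), and Nr3c1 123, 104, 155 and 151 CPM after CCl4 and 129, 102, 125 and 196 CPM without (-0.06, SE 0.221, adjusted p = 0.953). Both genes overlapped. The interaction called 0 of 8 in edgeR (2 at an unadjusted p under 0.05, 1 in DESeq2), against 0.194% of genes in edgeR. Its largest value was that of Nr0b2, 4.37 (SE 1.11, adjusted p = 0.104), which DESeq2 called (4.36, adjusted p = 0.0360). All 7 hepatocyte markers had positive interaction values too (median 2.53, 0 called by edgeR, 2 at an unadjusted p under 0.05), and their part in the result was not tested. Nr3c1 had 0.68 (SE 0.311, adjusted p = 0.385) and Rxra 0.57 (SE 0.308, adjusted p = 0.475).

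Between genotypes no receptor was called in macrophages. Without CCl4 edgeR called 0 of 8 (1 at an unadjusted p under 0.05, 0 in DESeq2), against 0.166% of genes, and after CCl4 it called 0 of 8 (1 at an unadjusted p under 0.05, 0 in DESeq2), against 0.0647%. The gene at an unadjusted p under 0.05 without CCl4 was Nr0b2, with 4.94, 7.17, 0.809 and 1.95 CPM in knockout mice 4, 5, 20 and 21, against 23.5, 13.5, 31.1 and 23.3 CPM in controls. Its groups did not overlap (log2 fold change -2.65, SE 0.713, adjusted p = 0.123), and a fit of these 2 groups alone (adjusted p = 0.0128) and one without the filter on low counts (0.000101) called it. Hepatocyte markers were lower in these knockout macrophages too, at 4043 to 13702 CPM against 16846 to 21335 CPM in controls (median log2 fold change -1.37, 0 of 7 called by edgeR and 2 at an unadjusted p under 0.05), and Cyp8b1, a hepatocyte enzyme of bile acid synthesis that SHP represses, fell to 2.48 ± 2.1 CPM in knockout mice, against 46.2 ± 8.71 CPM in controls (n = 4 each; log2 fold change -4.26, adjusted p = 0.00496). The part of hepatocyte RNA in either result was not tested. After CCl4 the gene was Nr1h4, with 30.5, 25.0, 7.77 and 3.14 CPM in knockout mice 13, 14, 17 and 18, against 7.12, 7.26, 0 and 0 CPM in controls (log2 fold change 2.05, SE 0.837, adjusted p = 0.553).

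Receptor targets in control macrophages fell with CCl4 in numbers that included hepatocyte genes. Of 8 FXR and SHP targets 5 fell (median -2.66), led by Cyp8b1 (-4.52) and Slc27a5 (-3.48), and of 14 PXR and CAR targets 6 fell (median -1.95), led by Cyp3a25 (-3.11), against 6.39% of all genes that fell. The 7 hepatocyte markers had a median of -1.78. Of 11 glucocorticoid targets 4 fell, among them the phosphatase Dusp1 (-1.48, adjusted p = 0.00138), with 1288 ± 249 CPM after CCl4 and 3586 ± 641 CPM without (n = 4 each), the metallothionein Mt1 (-1.23, adjusted p = 0.0132) and the chaperone Fkbp5 (-1.90, adjusted p = 0.0357). Klf9, a target of thyroid hormone and glucocorticoids, had 173 ± 34.9 CPM after CCl4 and 645 ± 333 CPM without (-1.90, adjusted p = 0.00424). In uninjured controls Dusp1 was lower in hepatocytes than in macrophages (log2 fold change of hepatocytes over macrophages -3.30, adjusted p = 9.04e-10).

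Across the 18 hepatocyte libraries the receptors varied partly together. The closest pair was Nr3c1 and Thrb, with a Pearson correlation of 0.846 on log2(CPM + 1), while Nr0b2 and Nr1h4 had one of 0.0026. These are descriptions over libraries that share groups, depth and file series. The genes most like each receptor by the same measure were Mettl7b (0.906) and Fbp1 (0.876) for Nr1h4, Kif13b (0.789) and Shb (0.785) for Nr0b2, and Ammecr1l (0.793) and Stx17 (0.748) for Nr1i2. For Nr1i3 they were Oxr1 (0.902) and Fgfrl1 (0.881), for Rxra Mug1 (0.910) and Pex16 (0.905), and for Ahr Mfap1a (0.818) next to an unnamed clone gene of equal rank to that precision. Esr1 was most like Acp5 (0.908) and Igfbp2 (0.861), Nr3c1 like Acbd5 (0.919) and Marf1 (0.914), and Thrb like Itpr2 (0.911) and Rbl2 (0.904).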

How the data were processed

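QuantSeq 3′ FWD libraries of sorted hepatocytes (Percoll gradient, propidium iodide negative) and F4/80+ CD45+ macrophages were sequenced as 50 bp reads, per the labels' protocols. Per the submitters' processing notes, Trimmomatic 0.39 and HISAT2 2.1.0 were used with the build GRCm38 (mm10). Which tool counted reads, with which annotation and strand setting, is not given in the sources used here. The authors deposited raw counts per gene, 1 table per cell type; 0 columns of per-sample values were left unused. A 3′ tag count does not scale with transcript length, and levels were not compared between genes.

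Genes were filtered with filterByExpr and normalised by TMM, then tested with edgeR 4.0.16 (limma 3.58.1, R 4.3.3) by its robust quasi-likelihood F test with Benjamini-Hochberg adjustment over all tested genes, in 1 model per cell type with the 4 groups and 1 joint model for hepatocytes over macrophages. Standard errors are approximate (each fold change on the log2 scale divided by the root of its F statistic). Depth was 596380 to 7535053 counts per library, so that 3 counts were worth 0.398 to 5.03 CPM of the raw total. That floor leaves out the filter and the TMM factors. Tags carry no molecular identifiers, and the floor covers counting error only. The alternatives were RLE size factors, no filter, DESeq2 1.42.0, a fit of the compared groups alone, the file series as covariate or alone (split at the widest gap between file numbers, 14 to 25), the 2 libraries of conflicting labels left out or moved to knockout, each mouse left out and a replicate block. The scripts were tested on simulated counts.

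The members and gene lists were chosen with earlier results of these data known. All 9 members are named, with up to 4 called genes of lowest p per list and the 2 genes of highest Pearson correlation with each member. Some genes that this rule names are not reported here. Gene positions are from GENCODE M21 on GRCm38. Libraries are named by the number in their titles, taken as that of the mouse; no label states that a number shared by hepatocytes and macrophages marks 1 animal. Target lists in hepatocytes were also fitted with the file series, an alternative chosen after seeing the data. Replicate libraries differed by more than sampling noise, with a chi-square per degree of freedom of 5.76 to 48.6 over 58 pairs.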

Additional observations from a re-analysis of the deposited data

Results flagged for a closer look

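Of 62 groups of 4 to 6 libraries, 1 gene at a time, 5 held a library that stood apart from the others by Dixon's criterion, which chance meets in about 1 of 20 groups. Esr1 in knockout hepatocytes had 57.3 CPM in mouse 5 and 30.0 to 33.4 CPM in the other 4 mice. Nr3c1 in knockout hepatocytes after CCl4 had 72.8 CPM in mouse 13 and 50.1 to 52.7 CPM in the other 3. Ahr in control macrophages had 51.0 CPM in mouse 7 and 32.8 to 35.6 CPM in the other 3. Nr1i3 had 0.411 CPM in macrophages of knockout mouse 4 (1 count) and 2.20 CPM in those of knockout mouse 14 after CCl4 (3 counts), with 0 counts in the other 3 mice of either group.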

How the results depend on the processing

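Of 1673 log2 fold changes of single receptors under other settings, 70 lost a call, 23 gained one and 33 changed sign, 0 of them from a called value; causes were not tested. Counts of called receptors moved as follows. For knockout over control hepatocytes without CCl4 (3 called), 0 were called with the file series as covariate, 0 in the second series, 1 with the compared groups alone, 2 without the filter and 2 with the conflicting library moved to knockout. For CCl4 in control hepatocytes (5), 3 were called without the filter, 6 with the series as covariate, 4 with RLE size factors, 4 in the first series, 3 by DESeq2, 0 in the second series with its 1 injured control, 2 without the conflicting library and 2 with it moved to knockout; the fit of the first series alone was chosen after seeing the data. For CCl4 in knockout hepatocytes (1), moving it gave 2. In macrophages, knockout over control (0) gave 1 without the filter and 1 with the compared groups alone, and after CCl4 (0) 1 without the filter. CCl4 in control macrophages (3) gave 5 without the filter, 1 in the second series, 2 without the conflicting library and 2 with it moved, CCl4 in knockout macrophages (0) 1 without the filter, and the macrophage interaction (0) 2 without the filter and 1 by DESeq2.

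With 1 mouse left out, the counts ran in hepatocytes from 0 to 4 for knockout over control, 0 to 0 after CCl4, 2 to 4 for CCl4 in controls, 0 to 1 in knockout mice and 0 to 0 for the interaction. In macrophages they ran from 0 to 0, 0 to 0, 2 to 5, 0 to 0 and 0 to 1, and for hepatocytes over macrophages from 5 to 6. Across cell types 15 numbers are shared. Deviations of such pairs from their group means correlated at -0.101 to 0.316 over genes (median 0.0941, over 0.1 in 7). Of 15 hepatocyte libraries 6 correlated best with their own number. These values do not decide whether a shared number marks 1 animal, and the main fit treated all libraries as independent. With the number as a replicate block, hepatocytes over macrophages had 4 called receptors against 5, since Nr1i3 did not pass the filter there; Nr1h4 was at 3.03, Nr0b2 at 2.92, Nr1i2 at 3.35 and Esr1 at 1.99, and uncalled Rxra turned to 0.0081.

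Other sign changes were of uncalled values. In hepatocytes, knockout over control after CCl4, Nr1i3 was 1.64 with the series as covariate, 0.31 without the conflicting library and 1.04 with it moved; in the second series Nr0b2 was -0.13, Nr3c1 0.045 and Thrb 0.27. In macrophages after CCl4, Thrb was -0.13 in the second series, -0.13 without the conflicting library and -0.26 with it moved. With 1 mouse left out, values crossed 0 in hepatocytes for Nr1i3 in knockout over control after CCl4 (-1.03 to 0.31) and, for CCl4 in knockout mice, Nr1i2 (-0.43 to 0.10) and Esr1 (-0.049 to 0.25). In macrophages they did so for knockout over control in Nr1h4 without CCl4 (-0.23 to 0.40) and Thrb after it (-0.38 to 0.48), and for CCl4 in knockout mice in Nr1h4 (-0.58 to 0.32), Nr3c1 (-0.17 to 0.16) and Esr1 (-0.55 to 0.16). For hepatocytes over macrophages Ahr (-0.013 to 0.29) and Rxra (-0.12 to 0.015) did. Depth limits Nr1i3 most, at 0 to 7 counts in second-series hepatocytes.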
